A study of Mus musculus with 8 samples.

Results

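The myelin genes *Mbp*, *Mag*, *Mog*, *Mobp*, *Cnp*, *Cldn11*, *Mal*, *Ermn* and *Ndrg1* were followed in RNA-seq libraries of mouse primary motor cortex (M1). They are 9 of the 38031 genes with counts, and all 9 were among the 9959 genes tested. They were chosen as genes of mature oligodendrocytes after their difference between the treatments was known, so that their fold changes are given as a description and not as a test. Each gene is represented by its annotated transcript with the lowest Ensembl number.

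Male Swiss Webster mice were injected in M1 at P21 to P25 with lentivirus carrying either a *Fezf2 shRNA* or, in the controls, a *non-silencing shRNA*, and tissue was collected at P49 to P53 (4 libraries of each treatment). Both viruses also carried the mCherry reporter, and the *Synapsin I* promoter, which is active in neurons, drove the reporter and the shRNA. Tissue was cut out by its mCherry signal, so a library holds RNA from neurons with and without virus and from all glia and vessels of that piece. Oligodendrocytes were therefore measured inside whole tissue in which the transgene was designed for neurons. In such bulk samples a lower value can reflect fewer oligodendrocytes in the piece or less RNA per oligodendrocyte, and these cannot be told apart. How much white matter each cut piece held is not recorded, and its part in the differences was not tested.

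Oligodendrocytes wrap axons of the central nervous system with many turns of their own membrane. Most cytoplasm is squeezed out to form compact myelin, which is insulated by its lipids and held together by a few abundant proteins, while cytoplasm stays in the innermost and outermost turns and at the edges. Precursor cells switch these genes on together as they mature, under transcription factors that include *Sox10*, *Olig1*, *Olig2* and *Myrf*, and the mature cells keep them on.

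The 8 libraries had 54684016 to 58003814 counts on genes. *Fezf2* had 688 to 767 normalized counts in the controls and 568 to 621 in the *Fezf2 shRNA*-treated libraries, with no overlap (18.2% lower, two-sided exact permutation test, p = 0.0286, the smallest possible with 4 against 4 libraries). On the log2 scale *Fezf2* differed by -0.29 (SE 0.0781) and did not pass the edgeR threshold (adjusted p = 0.0824), whereas DESeq2 without its prior placed it past the threshold (-0.28, adjusted p = 0.0256). Normalized counts are raw counts scaled to the mean effective library size of the 8 libraries. Intronic relative to exonic reads, measured in 145 genes, were higher in every *Fezf2 shRNA* library than in every control (mean difference 0.19 on the log2 scale, two-sided exact permutation test, p = 0.0286), and the part of this in the results below was not tested.

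Of the compact myelin genes, *Mbp* encodes the basic protein that joins the cytoplasmic faces of the membrane. *Mbp* (ENSMUST00000047865, chr18:82475162-82585637, plus strand, GRCm38) had 23657, 39332, 31586 and 48885 normalized counts in controls 1 to 4. In *Fezf2 shRNA* replicates 1 to 4 it had 21633, 21902, 36102 and 35809. The means were 35865 ± 10784 (SD, n = 4) and 28862 ± 8193 (SD, n = 4), a log2 fold change (LFC, *Fezf2 shRNA* against *non-silencing shRNA*, with the standard error of the edgeR fit) of -0.31 ± 0.234. *Fezf2 shRNA* replicates 3 and 4 lay inside the control range and above controls 1 and 3, and of the 9 genes *Mbp* had the smallest difference.

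*Mobp* encodes a further small basic protein of compact myelin. *Mobp* (ENSMUST00000068698, chr9:120149707-120169378, plus strand) had 1461, 2009, 1823 and 2719 normalized counts in controls 1 to 4, and 1036, 954, 1932 and 1667 in *Fezf2 shRNA* replicates 1 to 4. The means of 2003 ± 529 and 1397 ± 478 (SD, n = 4 each) gave an LFC of -0.52 ± 0.239 (SE). *Fezf2 shRNA* replicates 3 and 4 exceeded control 1, and replicate 3 also exceeded control 3, so the treatments overlapped.

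*Mal* encodes a proteolipid that sorts membrane into myelin. *Mal* (ENSMUST00000028853, chr2:127634874-127656219, minus strand) had 907, 1152, 1126 and 1571 normalized counts in the controls and 617, 619, 1101 and 1029 with *Fezf2 shRNA*. The means were 1189 ± 277 and 841 ± 260 (SD, n = 4 each), with an LFC of -0.50 ± 0.217 (SE). Replicates 1 and 2 of the *Fezf2 shRNA* libraries lay below all controls, and replicates 3 and 4 lay between control 1 and control 3.

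The next 4 genes encode proteins of particular zones of the sheath. *Mag* encodes an adhesion protein of the innermost turn, where myelin faces the axon. *Mag* (ENSMUST00000040548, chr7:30899183-30914327, minus strand) had 3209, 3769, 3659 and 5568 normalized counts in the controls. With *Fezf2 shRNA* it had 2354, 2047, 2937 and 3582. Its LFC was -0.57 ± 0.194 (SE), with means of 4051 ± 1040 and 2730 ± 677 (SD, n = 4 each). *Fezf2 shRNA* replicate 4 exceeded control 1, and the other 3 lay below all controls.

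*Mog* encodes a glycoprotein of the outermost surface. *Mog* (ENSMUST00000102665, chr17:37010743-37023398, minus strand) had 902, 1130, 1061 and 1566 normalized counts in the controls, and 633, 631, 973 and 884 with *Fezf2 shRNA*. Its mean was 1165 ± 284 in the controls and 780 ± 175 with *Fezf2 shRNA* (SD, n = 4 each), an LFC of -0.58 ± 0.186 (SE). Here replicate 3 was the *Fezf2 shRNA* library inside the control range.

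*Cnp* encodes a cyclic nucleotide phosphodiesterase that keeps the cytoplasmic channels of the sheath open. *Cnp* (ENSMUST00000103120, chr11:100574904-100581728, plus strand) had 4621, 5329, 5320 and 6744 normalized counts in the controls and 3595, 3272, 4619 and 4803 with *Fezf2 shRNA*. The means were 5503 ± 891 and 4072 ± 753 (SD, n = 4 each), an LFC of -0.43 ± 0.140 (SE). Only replicate 4 of the *Fezf2 shRNA* libraries reached the control range, and replicate 3 lay just below control 1.

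*Cldn11* encodes the claudin of the tight junctions that run through the turns of central myelin. *Cldn11* (ENSMUST00000046174, chr3:31149920-31164324, plus strand) had 1862, 2102, 2309 and 3188 normalized counts in the controls. With *Fezf2 shRNA* it had 1090, 1174, 1774 and 1983. The means were 2365 ± 578 and 1505 ± 441 (SD, n = 4 each), and its LFC of -0.65 ± 0.211 (SE) was the most negative of the 9 genes. *Fezf2 shRNA* replicate 4 lay above control 1.

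*Ermn* encodes ermin, an actin-binding protein that appears late in maturation. *Ermn* (ENSMUST00000090940, chr2:58045113-58052864, minus strand) had 988, 1279, 1024 and 1994 normalized counts in the controls and 779, 719, 1139 and 1156 with *Fezf2 shRNA*. The means were 1321 ± 467 and 948 ± 232 (SD, n = 4 each), an LFC of -0.48 ± 0.232 (SE). *Fezf2 shRNA* replicates 3 and 4 lay above controls 1 and 3. *Ermn* shares 748 bases at its end with the annotated extent of *Galnt5* on the opposite strand. The transcript counted for *Galnt5* had 5.97 to 64.6 normalized counts. Whether that transcript covers the shared bases was not examined, so its counts do not measure the reads shared there.

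*Ndrg1* encodes a cytoplasmic protein of myelinating glia, and its loss causes a demyelinating disease of peripheral nerve. *Ndrg1* (ENSMUST00000005256, chr15:66929318-66969640, minus strand) had 1412, 1418, 1537 and 1870 normalized counts in the controls and 842, 1021, 1211 and 1377 with *Fezf2 shRNA*. It was the only one of the 9 genes whose treatments did not overlap (1560 ± 215 against 1113 ± 232, SD, n = 4 each), with an LFC of -0.49 ± 0.145 (SE). An antisense gene, *Gm17035*, lies over 1501 bases near its 3′ end and had 462 to 1029 normalized counts, and since counting did not use the strand, reads of the pair cannot be told apart there.

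**Figure D1:**
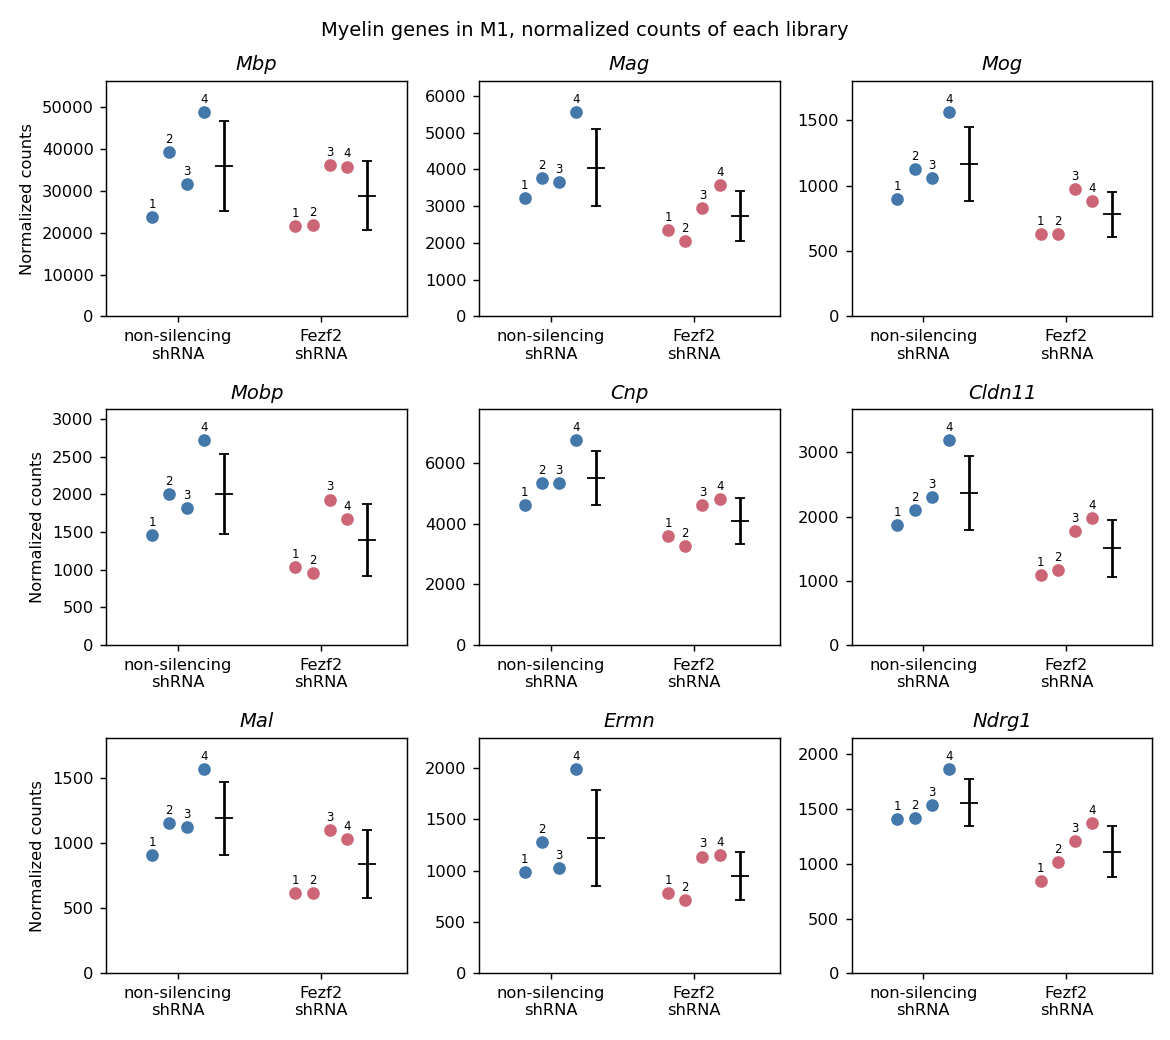
Normalized counts (vertical axes, from 0) of the 9 myelin genes in each *non-silencing shRNA* (blue) and *Fezf2 shRNA* (red) library, numbered by replicate, with the mean and SD of 4 libraries in black. Control 4 is the highest point in every panel, and *Fezf2 shRNA* replicates 1 and 2 are the lowest pair.

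The order of the libraries was shared by the 9 genes. Control 4 was highest and control 1 the lowest control in 9 of 9 genes, and *Fezf2 shRNA* replicates 1 and 2 were the lowest pair in 9 of 9. *Fezf2 shRNA* replicate 3 or 4 reached the control range in 8 of 9. The coefficient of variation of the 9 genes was 13.8% to 35.3% among controls and 18.5% to 34.2% among *Fezf2 shRNA* libraries, against a median over all genes tested of 8.26% and 7.69%. Each of the 9 genes thus varied more between libraries of 1 treatment than the median gene.

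**Figure D2:**
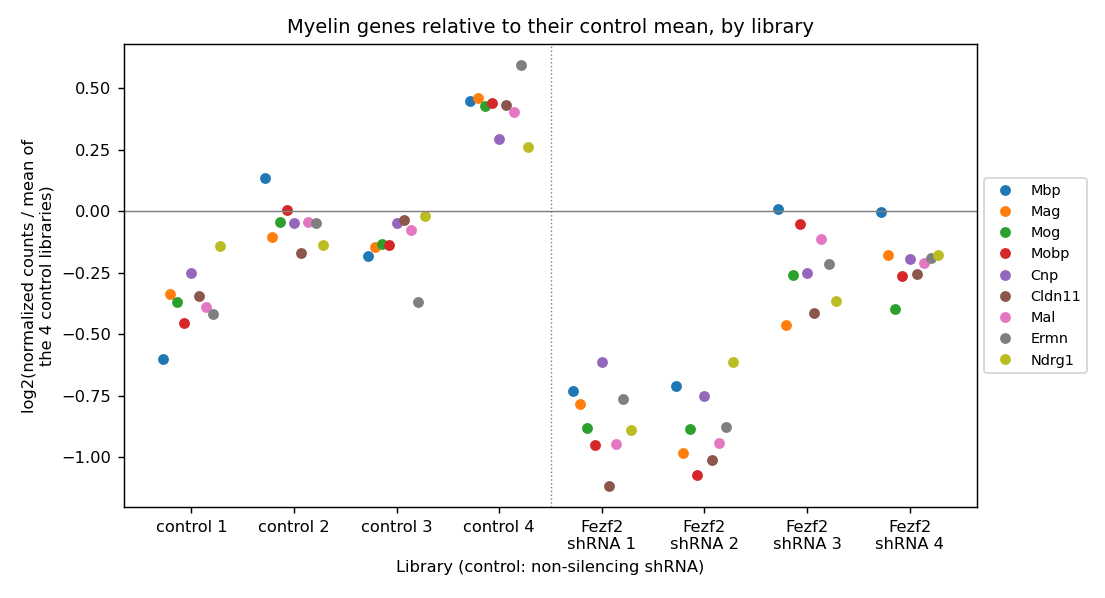
Each gene as the log2 ratio of its normalized counts to the mean of the 4 controls (vertical axis), by library (horizontal axis), with 1 point per gene. All 9 genes lie above 0 in control 4, and in *Fezf2 shRNA* replicates 1 and 2 all 9 lie below their own value in every control.

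All 9 log2 fold changes were negative, from -0.65 to -0.31 with a median of -0.50. The median over all genes tested was -0.03, and 56.6% of them were negative. Fold changes rose with gene length in these libraries, so genes of like span were also compared. The 8 genes other than *Mbp* span 6.83 to 40.3 kb, and the 4526 genes tested within that span had a median of -0.07. For the 673 genes of 90 to 130 kb, the length class of *Mbp*, the median was 0.09. With a correction of each library for gene length the 9 log2 fold changes ran from -0.57 to -0.32.

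No myelin gene passed the threshold of an adjusted p of 0.05 and an absolute log2 fold change of 0.2 in edgeR in either direction (0 of 9, against 2.09% of all genes tested, of which 0.131% decreased and 1.96% increased). An unadjusted p under 0.05 was found in 6 of 9, all lower with *Fezf2 shRNA*, against 19.6% of all genes tested in either direction and 7.73% decreased. DESeq2, the tool of the study, placed *Mog*, *Cnp* and *Ndrg1* past it (3 of 9, all decreased, against 7.37% of all genes with its prior and 7.55% without, or 0.894% and 0.944% decreased). *Ndrg1*, the gene without overlap, compares with 4.41% of all genes tested whose *Fezf2 shRNA* libraries were all lower than the controls. Since the genes were chosen on this contrast, these counts are a description.

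**Figure D3:**
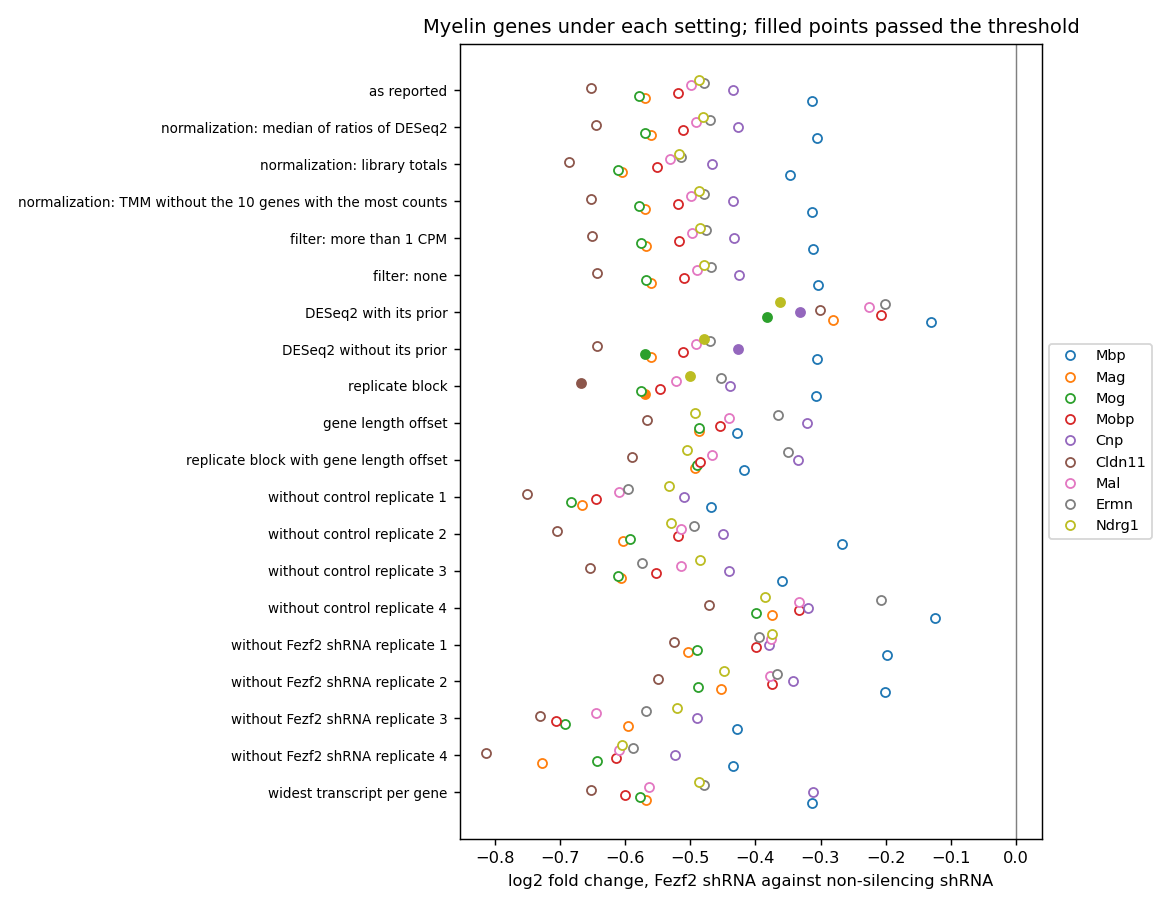
Log2 fold changes of the 9 genes (horizontal axis) as reported and under 19 other settings (vertical axis), with filled points past the threshold. Every point lies below 0, and the points move towards 0 without control 4 and with the prior of DESeq2.

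The size of the differences depended on single libraries. Without control 4 the 9 log2 fold changes ran from -0.47 for *Cldn11* to -0.12 for *Mbp* with a median of -0.33, and without *Fezf2 shRNA* replicate 4 the median was -0.61. *Mbp* moved from -0.31 to -0.20 without *Fezf2 shRNA* replicate 1 and to -0.20 without *Fezf2 shRNA* replicate 2, and *Ermn* moved from -0.48 to -0.21 without control 4. No gene changed its sign in any setting.

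Levels can be compared between genes only per length, and here the length is the counted genomic interval, introns included. On this scale the controls had 806 normalized counts per kb for *Cnp*, 325 for *Mbp*, 268 for *Mag*, 170 for *Ermn*, 164 for *Cldn11*, 102 for *Mobp*, 92.0 for *Mog*, 55.7 for *Mal* and 38.7 for *Ndrg1*. *Cnp* is the most compact gene of the 9, and the range of its 8 libraries did not overlap that of *Mbp*. Each gene lay above the next in all 8 libraries, except *Ermn* above *Cldn11* in 6 of 8 and *Mobp* above *Mog* in 7 of 8, so these 2 pairs of neighbours did not differ beyond their spread. From *Mbp* downwards, the ranges of neighbours over the 8 libraries overlapped.

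This order depends on which transcript stands for a gene. The widest annotated *Mobp* transcript, ENSMUST00000174193 (chr9:120149742-120181484), held 7.55 times the counts of the transcript used in the controls, and *Mal* in its widest transcript, ENSMUST00000028854 (chr2:127633226-127656695), 4.51 times. With the widest transcript of each gene, the controls had 476 normalized counts per kb for *Mobp*, 465 for *Cnp*, 325 for *Mbp* and 229 for *Mal*, so *Mobp* and *Cnp* then lie side by side above *Mbp*. The low place of *Mbp* comes from its long interval. In the controls its upstream 79.4 kb, described below, had 9.71 normalized counts per kb. The remaining 31.1 kb had 1128 per kb, above every value given here for the other genes.

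Short stretches outside a narrower annotated transcript held a large share of the reads of *Mal*, *Mobp* and *Ndrg1*. In *Mal*, the narrower transcript leaves out 2124 exonic bases, 1648 at the 3′ end and 476 at the 5′ end, which are 76.5% of the exonic bases and held 74.7% to 79.0% of the reads. In *Mobp*, the last 5393 bases (chr9:120176092-120181484, 37.8% exonic) held 74.2% to 78.3%. For *Mbp* no such share is given, because a transcript lying inside the narrower one held more reads than the narrower one itself. In *Ndrg1*, 1760 exonic bases, 1759 of them at the 3′ end, are 60.9% of the exonic bases and held 52.5% to 65.7%. The stretch in *Ndrg1* also overlaps *Gm17035*, whose reads cannot be told apart from its own. Log2 ratios of mean normalized counts between the treatments were taken in the outer stretch and in the rest of the gene, with no test. They were -0.58 and -0.50 in *Mal*, -0.62 and -0.56 in *Mobp* and -0.41 and -0.59 in *Ndrg1*.

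*Mbp* held a part that followed the other myelin genes less closely. The gene starts far upstream with exons of the Golli transcripts, which are made in neurons and immune cells as well as in oligodendrocytes. The upstream 79.4 kb, before the transcript ENSMUST00000080658 (with 8 bases at the 3′ end of the gene), are 2.47% exonic and held 1.75% to 5.70% of the *Mbp* reads. They had 489, 1115, 622 and 856 normalized counts in the controls and 592, 1249, 1337 and 799 with *Fezf2 shRNA*. These means of 770 ± 275 and 994 ± 357 (SD, n = 4 each) differ by a log2 ratio of 0.37, and the treatments overlap widely. The remaining 31.1 kb, with the exons of classic myelin basic protein, had 35095 ± 10589 and 27867 ± 8109 (SD, n = 4 each), a log2 ratio of -0.33. Control 4, highest by far in the remaining part, was second among controls in the upstream part. Not all annotated intervals of *Mbp* match the counted ones, since only 38 of 66 nested pairs of its 16 transcripts had at least as many reads in the outer interval in all libraries, so the borders of these parts are approximate.

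**Figure D4:**
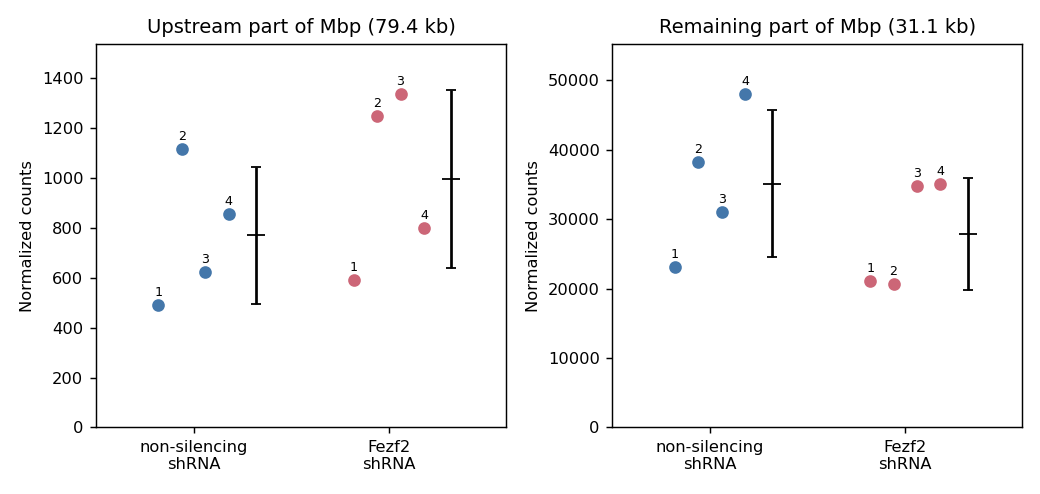
Normalized counts of the upstream part of *Mbp* (left) and of the rest of the gene (right) in each library, numbered by replicate, with mean and SD of 4 libraries in black. The right panel repeats the order of the libraries seen in the other myelin genes, and the left one does not.

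The shared order of the libraries was measured within treatments, which the choice of the genes did not use. For each gene the treatment mean of log2 CPM (counts scaled to equal library sizes) was subtracted, and the deviations were correlated over the 8 libraries. The 36 pairs of the 9 genes had Pearson r of 0.80 to 0.99 with a median of 0.94. The closest pairs were *Mobp* with *Mal* (0.992), *Mog* with *Mobp* (0.981) and *Mog* with *Mal* (0.979), and the least close was *Ermn* with *Ndrg1* (0.796). The mean of the 9 genes deviated by 0.45 in control 4, 0.31 and 0.33 in *Fezf2 shRNA* replicates 3 and 4, and by -0.34, -0.31 and -0.33 in control 1 and *Fezf2 shRNA* replicates 1 and 2. The values of r therefore rest mostly on a split of 3 high against 3 low libraries.

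Of the 9950 other genes tested, 77 (0.774%) had r of 0.9 or more with the mean of the myelin genes, and these included 11 of the 26 further oligodendrocyte genes tested. The 9 closest genes reported here were *Acad11* (0.995), *Fgfr2* (0.981), *Gm20425* (0.980), *Trf* (0.980), *Mfn1* (0.975), *Myrf* (0.974), *Gpr37* (0.973), *Qdpr* (0.971) and *Med13l* (0.966). *Gm20425* shares 26307 bases with *Trf*, so these are not independent entries. *Acad11* shares 12194 bases with *Gm28305* on its own strand, which had 1456 to 2405 normalized counts, and 42777 bases with *Ackr4* on the opposite strand, so its reads cannot be told apart from theirs. Between treatments 6 of these 9 had negative log2 fold changes, and *Acad11*, an acyl-CoA dehydrogenase, at 0.03, *Mfn1*, a mitochondrial fusion protein, at 0.11 and *Med13l*, a Mediator subunit, at 0.29 did not. *Med13l* rose past the edgeR threshold (SE 0.0619, adjusted p = 0.0390). It spans 204720 bases, and fold changes rose with gene length in these libraries. With the gene length offset 0 genes passed as increased, so this call was lost.

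The label of mature oligodendrocytes was checked against genes outside the 9. The means of the 3 lists of further mature genes had r of 0.94 to 0.96 with the myelin genes, and 4 of these 9 closest genes (*Trf*, *Myrf*, *Gpr37* and *Qdpr*) are on lists of this lineage. Not every listed gene followed. The lowest single gene had r of 0.49 in the membrane and junction list, 0.35 in the lipid list and -0.44 among the other mature genes. Medians of single genes were 0.88, 0.90 and 0.87. Among the transcription factors the lowest r was -0.25. All lists were chosen with earlier results of these data known. The means of lists for other cells had lower r. The mean of the precursor genes had r = 0.42 with the myelin genes over the 8 libraries, that of 9 neuron genes -0.02, that of 7 astrocyte genes -0.785 and that of 7 microglia genes -0.54. The mean of 5 genes of the striatum, which lies beneath the cortex, had 0.81. The summed counts of the striatum genes were 6357 to 6914 in the controls and 6486 to 8028 with *Fezf2 shRNA*. Of the 5 tested, 0 passed the edgeR threshold and 1 had an unadjusted p under 0.05, higher with *Fezf2 shRNA*. Beside these and the next counts, 2.09% of all genes tested passed and 19.6% had such a p. The summed astrocyte genes had 63558 to 72534 and 64097 to 69633 (0 of 7 past the edgeR threshold, 0 with an unadjusted p under 0.05). The neuron genes had 212073 to 238364 and 217875 to 230099 (0 of 9 and 2 of 9, these 2 higher with *Fezf2 shRNA*). The listed microglia genes summed to 8310 to 11325 in the controls and 7785 to 11607 with *Fezf2 shRNA* (0 of 7 past the edgeR threshold, 0 with an unadjusted p under 0.05). Endothelial genes (0 of 3 and 0 of 3) summed to 3034 to 4434 and 2513 to 3433, and the Schwann cell genes, of which 1 was tested and 0 passed either cutoff, to 747 to 1466 and 636 to 1738. DESeq2 placed *Pde10a* of the striatum list (LFC 0.50 without its prior) and *Rbfox3* of the neuron list (0.28) past its threshold as increased, genes named here after their values were seen, and none of the other genes given in these sums. *Pde10a* spans 101942 bases and *Rbfox3* 418418, and fold changes rose with gene length in these libraries. The part of gene length in their rise was not tested. No gene listed for layer 6b or the meninges had enough counts to be tested. The part of these cells in the differences of the myelin genes was not tested.

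Promoters of the 3 genes that moved most closely together are shown, chosen after these values were seen, because myelin genes are read out by shared transcription factors. Sequences are from RefSeq (GRCm38.p6), whose table held 7 of the 9 genes, all but *Mbp* and *Ndrg1*. They cover up to 250 bases before the start site, 5′ to 3′ on the strand of the gene, and end where the most upstream annotated transcript begins. Capitals mark ACAANG and CTGGNAC on either strand, where N is any base. ACAANG is a loosened form of the core recognised by SOX factors, which has A or T at N. CTGGNAC is the core recognised by MYRF.
Mobp promoter, chr9:120149492-120149706, plus strand: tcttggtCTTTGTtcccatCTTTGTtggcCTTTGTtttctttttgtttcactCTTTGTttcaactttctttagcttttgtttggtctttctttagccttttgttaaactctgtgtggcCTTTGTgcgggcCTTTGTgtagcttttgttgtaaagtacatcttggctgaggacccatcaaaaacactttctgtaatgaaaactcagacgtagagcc
Mog promoter, chr17:37023399-37023648, minus strand: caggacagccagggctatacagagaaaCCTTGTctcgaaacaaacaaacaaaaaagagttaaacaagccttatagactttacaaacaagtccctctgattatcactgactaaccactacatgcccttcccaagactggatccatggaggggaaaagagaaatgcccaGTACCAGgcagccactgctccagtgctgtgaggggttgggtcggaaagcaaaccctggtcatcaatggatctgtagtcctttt
Mal promoter, chr2:127656696-127656945, minus strand: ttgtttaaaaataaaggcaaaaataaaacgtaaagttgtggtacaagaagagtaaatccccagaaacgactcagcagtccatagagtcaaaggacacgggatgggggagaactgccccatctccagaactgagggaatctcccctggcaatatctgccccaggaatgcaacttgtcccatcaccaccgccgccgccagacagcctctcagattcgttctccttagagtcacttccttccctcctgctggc

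The *Mobp* promoter held ACAANG 6 times, all on the opposite strand, and no CTGGNAC. The *Mog* promoter held each motif 1 time on the opposite strand, with ACAANG as ACAAGG, and the *Mal* promoter held neither. Over the 7 promoters of 250 bases, 5 held ACAANG, against 36.6% of all 27025 promoters of that length in the table, and 2 held CTGGNAC, against 16.0%. Both counts include *Cnp*, whose start lies 35 bases from the nearest annotated one. The bases checked after that start were not found in an annotated *Cnp* transcript, so its window is less certain. Genes whose libraries moved almost in parallel therefore differed in these letters. A match is not a measured binding site, and its absence in this window says nothing about the factor.

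The further genes of the mature cell were read from lists that were also drawn up with results of these data known. Of 37 such genes (membrane and junction proteins, lipid enzymes and others) 26 were tested, 0 passed the edgeR threshold in either direction and 14 had an unadjusted p under 0.05, beside 2.09% and 19.6% of all genes tested (7.73% with such a p and lower). All 26 log2 fold changes were negative with a median of -0.37, and in 4 genes the treatments did not overlap, beside 56.6% of all genes with negative values and 4.41% without overlap and lower. *Opalin*, a sialylated membrane protein of the mature cell, stayed under the expression filter with 398 to 598 normalized counts in the controls and 201 to 374 with *Fezf2 shRNA*, which do not overlap. DESeq2 placed 5 of the 26 genes past the threshold, all lower with *Fezf2 shRNA*, beside 0.894% of all genes with its prior and 0.944% without.

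**Figure D5:**
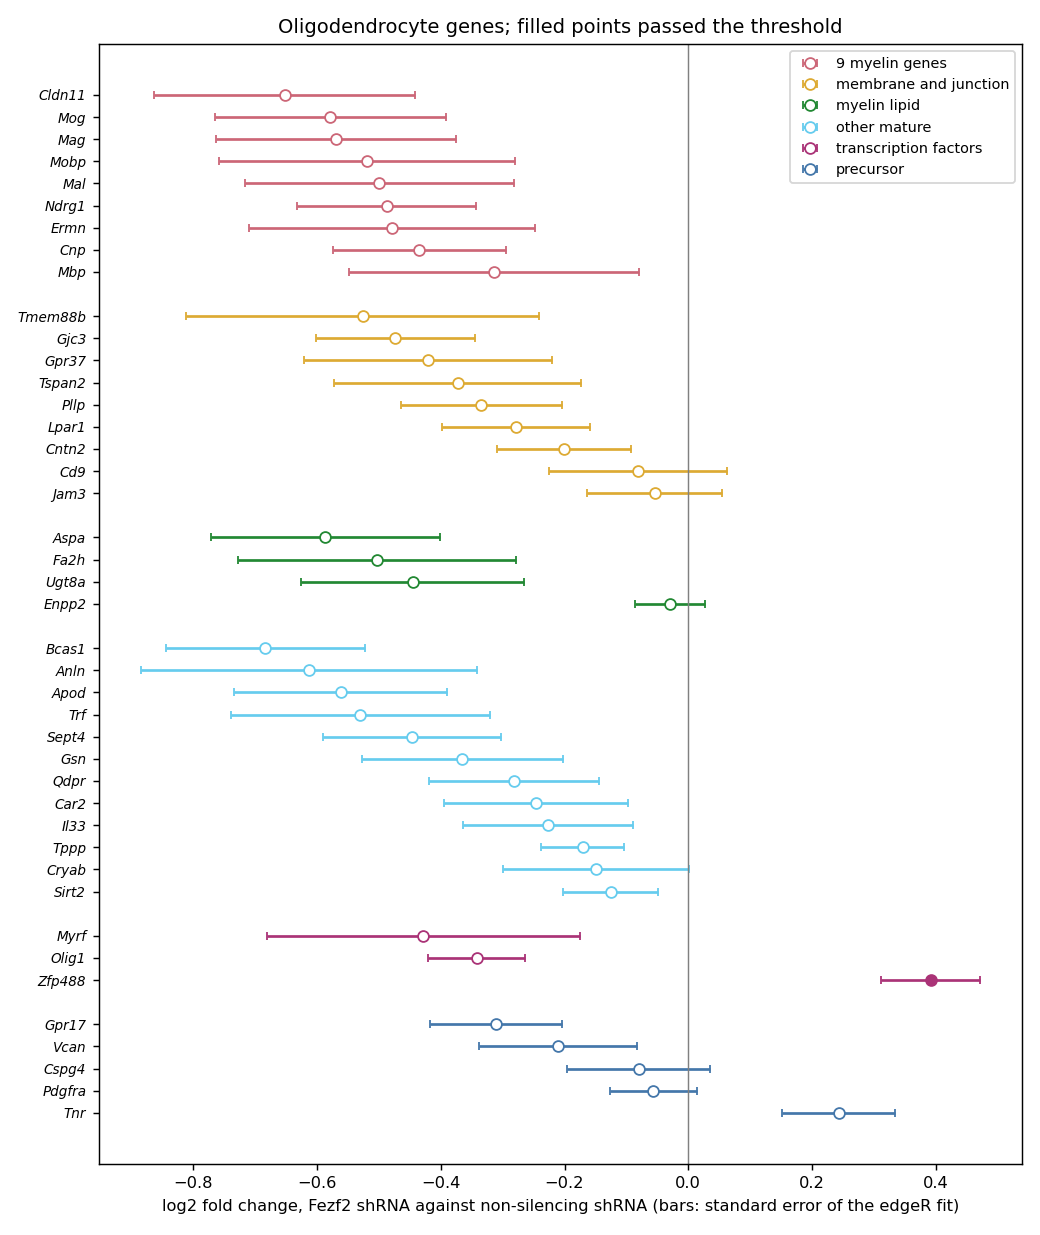
Log2 fold change of *Fezf2 shRNA* against *non-silencing shRNA* (horizontal axis, bars are standard errors of the edgeR fit) for tested genes of 6 lists of the oligodendrocyte lineage. The myelin genes and the further mature genes all lie below 0, and the filled point is *Zfp488*, the only gene shown past the threshold.

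Of the regulators tested, 2 of 3 had negative log2 fold changes, as did 4 of the 5 precursor genes tested, beside 56.6% of all genes tested. *Myrf*, the factor that switches on myelin genes, had an LFC of -0.43 ± 0.254 (SE, adjusted p = 0.359 in edgeR), with 383, 582, 450 and 717 normalized counts in the controls and 273, 282, 494 and 535 with *Fezf2 shRNA*. *Sox10*, the lineage factor above *Myrf*, was under the filter, with 346 to 706 normalized counts in the controls and 276 to 358 with *Fezf2 shRNA*. Of 8 transcription factors 3 were tested, 0 decreased past the edgeR threshold and 1 rose, *Zfp488*, a zinc finger protein that acts with *Olig2*. *Zfp488* had 4472 to 5394 normalized counts in the controls and 5779 to 7068 with *Fezf2 shRNA* (LFC 0.39 ± 0.0803, SE, adjusted p = 0.0356 in edgeR), and this call held in 8 of 19 other settings. Within treatments *Zfp488* had r of -0.25 with the mean of the 9 myelin genes, and *Myrf* had 0.97. Counts include introns and both strands, and which cells the *Zfp488* reads came from was not tested. *Olig1*, a lineage factor named here after its values were seen, had 1255, 1362, 1439 and 1599 normalized counts in the controls and 1147, 1080, 1100 and 1134 with *Fezf2 shRNA*. The treatments do not overlap, with an LFC of -0.34 ± 0.0787 (SE, adjusted p = 0.0527 in edgeR), and DESeq2 placed *Olig1* past its threshold as decreased (adjusted p = 0.0060 with its prior). *Pdgfra*, the growth factor receptor of precursor cells, had an LFC of -0.06 ± 0.0709 (SE, adjusted p = 0.685 in edgeR), with 1514 to 1755 and 1472 to 1701 normalized counts. Of the 9 precursor genes 5 were tested, with a median log2 fold change of -0.08, and 0 passed the threshold of edgeR or DESeq2 in either direction. Over all genes tested 2.09% passed in edgeR and 7.37% in DESeq2 with its prior. An unadjusted p under 0.05 in edgeR was found in 2 of the 5, beside 19.6% of all genes tested. These 2 went in opposite directions, with log2 fold changes of -0.31 and 0.24.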

How the data were processed

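M1 tissue of 4 *Fezf2 shRNA*-treated and 4 *non-silencing shRNA*-treated mice gave 1 library of total RNA each, and samples were grouped by the labels of the record. The authors aligned paired reads to mm10 (TopHat2 2.1.1) and deposited raw counts per Ensembl transcript (bedtools 2.26.0, multiCov). These counts cover the whole genomic interval, introns and both strands included, so pre-mRNA and overlapping genes add reads. Whether reads with several alignments were counted is not given in the sources used here. A second deposited table holds the comparisons of the authors (log2 fold changes, base means as signal, score, p values) and was not used.

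Of 94647 transcripts, 91320 were matched to GENCODE M21, and the other 3327 held 1.82% of counts. Each gene was represented by its lowest-numbered transcript. The test included genes above 8 CPM in 4 or more libraries and was run with edgeR 4.0.16 (R 4.3.3, TMM, quasi-likelihood test, Benjamini-Hochberg over all 9959 genes, no covariate). A gene passed at an adjusted p of 0.05 or less and an absolute log2 fold change of 0.2 or more. Alternatives were DESeq2 1.42.0, other normalizations and filters, the replicate number as a block, a loess offset for gene length (span 0.3), the widest transcript, and each library left out. Correlations used log2 CPM with a prior count of 2. The edgeR fit was checked on simulated counts in which 200 genes were changed. Of the genes changed by an absolute log2 fold change of 0.5, 72.2% passed, and 5.52% of all genes that passed were unchanged. These shares are for genes drawn at random and not for the myelin genes, which vary more than the median gene. Python 3.11.15 was used for the rest.

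The genes and all lists were chosen with earlier results of these data known. Named genes are the 9 myelin genes, *Fezf2*, *Opalin*, *Myrf*, *Sox10*, *Pdgfra*, genes of the other lists past the threshold, and the 10 genes closest to the mean of the 9. Some genes under this rule or on the lists are not reported here, and those of the oligodendrocyte lists remain in the counts and medians. *Lhfpl3* was not found in the table. At 54684016 to 58003814 counts per library, the spread between samples and not counting error limits precision, and p-values measure only that spread.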

Additional observations from a re-analysis of the deposited data

How the results depend on the processing

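The 171 values of the 9 myelin genes under 19 other settings were all below 0 (-0.81 to -0.12), and the median of the 9 stayed between -0.61 and -0.28. The edgeR count of myelin genes past the threshold was 0 as reported, and 3 with DESeq2 with or without its prior and 3 with the replicate block (*Mag*, *Cldn11* and *Ndrg1*, against 0.904% of all genes tested). It was 0 in every run that left out 1 library. The further mature genes went from 0 past the threshold to 5 with DESeq2 with or without its prior (*Apod*, *Aspa*, *Bcas1*, *Gjc3* and *Sept4*) and 1 with the replicate block, with 0 to 1 when 1 library was left out. Of the transcription factors, 1 passed as reported, 2 with DESeq2 with or without its prior (*Olig1* in addition), and 0 with a filter of more than 1 CPM or none, with the replicate block, with the gene length offset or with both, and 0 to 1 when 1 library was left out. *Fezf2* passed with DESeq2 with its prior (-0.25) and without it (-0.28). Over all genes, 208 passed as reported, 84 with a filter of more than 1 CPM, 103 with none, 734 with DESeq2 with its prior, 752 without it, 90 with the replicate block, 2 with the gene length offset, 2 with both, and 0 to 368 when 1 library was left out (0 without control 1, with 1568 genes at an unadjusted p under 0.05). The causes were not tested.

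The labels do not say that a replicate number marks a shared litter, batch or day. Deviations of libraries with the same number correlated at 0.31, 0.09, -0.13 and 0.17, and 4 of 8 libraries were closest to their own number. These values do not decide whether a number marks a pairing, which was not tested. Depth did not limit these genes, as the lowest value of any in any library was 617 normalized counts.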
